A study of Mus musculus with 12 samples.

Results

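The rectum of mice in which an Lgr5-driven, tamoxifen-inducible Cre recombinase acts on a floxed Apc gene was compared with control rectum by RNA sequencing. The Lgr5-Apc group held 4 libraries, whose genotype is given as Lgr5creER;APC flox, and the control group held 3 libraries titled WT. The genes described are those with at least 1 FPKM (fragments scaled to transcript length and to library size) in at least 2 of these 7 libraries. They number 15961 of the 27785 genes in the table. Of these, 946 reached 1 FPKM in exactly 2 libraries, just inside the rule, and another 1671 genes reached it in exactly 1, just outside. The series holds 12 libraries in all, and its other 5, from 3 Cdx2-Apc and 2 Lgr5-Cdx2-Apc samples, entered only the estimate of spread.

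The genotype field of the control samples names the Cdx2 Cre driver and floxed Apc, followed by WT in brackets, so whether these mice carried Cre or a floxed allele is not settled by the labels. Every sample carries a protocol of intraperitoneal tamoxifen, 25 mg/kg for 5 days, but the sample-level treatment entry is given for the Lgr5-Apc samples and not for the controls. The contrast therefore holds the Lgr5 driver, the allele and possibly tamoxifen together, and these cannot be told apart. Age, sex and the time between tamoxifen and sampling are not given in the sources used here. Nothing says that the libraries of a group came from separate animals, so the spread between samples may be technical. Each p-value rests on that spread within groups, pooled over all 12 libraries.

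Apc is a scaffold of the destruction complex, in which Axin proteins and the kinases Gsk3a and Gsk3b mark beta-catenin for degradation when no Wnt ligand is present. Loss of Apc leaves beta-catenin free to enter the nucleus and act with TCF factors on target genes such as Axin2, Nkd1 and Lgr5. In the large bowel Lgr5 is expressed by stem cells at the crypt base, so an Lgr5-driven Cre acts in few cells of the tissue and then in their progeny. Rectum as a whole also holds colonocytes, goblet cells, muscle layers, stroma and immune cells, and it borders the squamous epithelium of the anal canal and skin.

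Libraries of the Lgr5-Apc group differed from each other in their levels of tissue marker genes. A list score, the mean log2(FPKM + 1) of the members tested, summarised each of 33 marker and pathway lists per library. The squamous epithelium score was 4.06, 8.45, 7.66 and 0.632 in Lgr5-Apc replicates 1 to 4, against 5.58, 1.91 and 1.69 in control replicates 1 to 3. Replicates 2 and 3 were thus the most squamous of the 7 libraries and replicate 4 the least, with control replicate 1 in between. The skeletal muscle score was 2.83, 5.42, 1.76 and 0.853 in Lgr5-Apc, against 1.90, 1.49 and 1.63 in control, so replicate 2 also held the most striated muscle RNA. Short RNAs and ribosomal RNA took 22.8%, 21.5%, 17.3% and 17.5% of the summed FPKM in Lgr5-Apc, against 40.2%, 25.0% and 39.3% in control, with no overlap between the groups. Total FPKM ran from 455036 to 728462 in the 7 libraries, and the depth in reads is unknown. Lgr5-Apc replicate 2 lay farthest out on the leading principal component, which took 51.5% of the variance. Xist was between 61.1 and 163 FPKM in each of the 7 libraries. In the libraries that entered only the estimate of spread, it was 1.12, 0.702 and 0.893 FPKM in Cdx2-Apc and 215 and 266 FPKM in Lgr5-Cdx2-Apc. The Y-linked gene Eif2s3y was listed at 0 in all 4 Lgr5-Apc libraries, against 3.06, 0.198 and 0.130 FPKM in control. Control replicate 1 thus held Y-linked RNA beside Xist, and it also had the highest sum of 16 liver genes, 1551 FPKM, against at most 346 FPKM in the other 6 (a Cdx2-Apc library had 1393 FPKM). Whether RNA of another sample was mixed into it was not tested, and this doubt applies to each of its values.

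**Figure D1:**
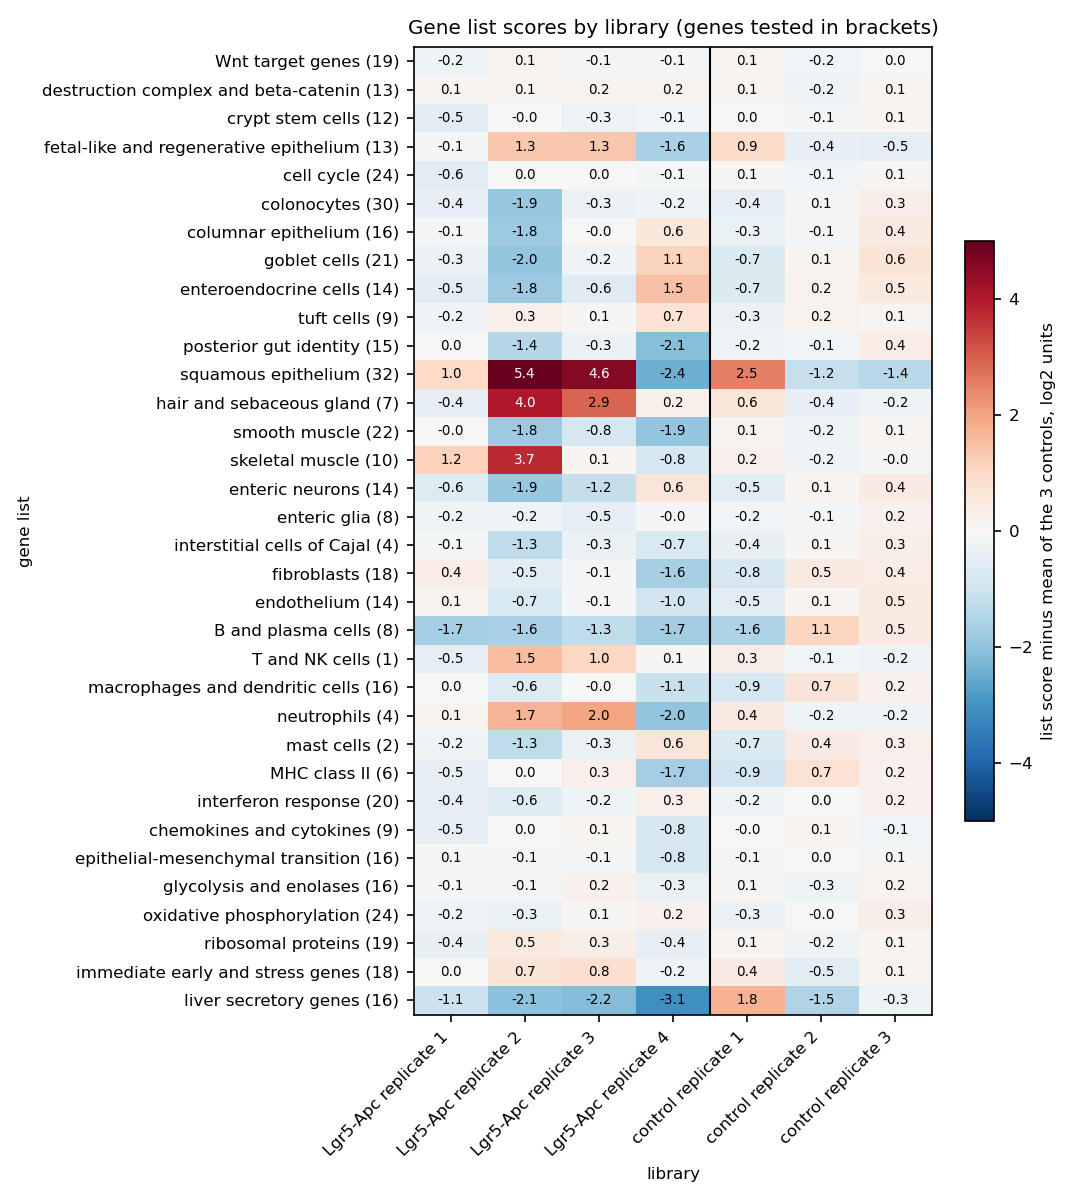
Score of each gene list in each library, as the difference from the mean of the 3 control libraries in log2 units. Rows are lists with the number of genes tested in brackets, columns are the 4 Lgr5-Apc and then the 3 control libraries, and red is above and blue below the control mean. The squamous row runs from deep red in Lgr5-Apc replicates 2 and 3 to blue in replicate 4.

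Replicate 4 of Lgr5-Apc also stood apart in the Hox genes, which mark position along the gut, and these were picked after their values were seen. Genes of paralog group 13 mark its hind end. Hoxb13 was 110.3, 26.9, 118 and 0.924 FPKM in Lgr5-Apc, against 81.4, 102 and 128 FPKM in control. Hoxd13 was 90.3, 21.5, 64.0 and 0.395 FPKM in Lgr5-Apc, against 76.2, 62.1 and 70.1 FPKM in control. The mean log2(FPKM + 1) of the 4 group 13 genes was 4.59, 3.38, 4.52 and 0.661 in Lgr5-Apc, against 4.27, 4.31 and 4.49 in control. Hox genes of more forward positions were split in replicate 4, which was the highest of the 7 libraries for each of Hoxb2 to Hoxb9 and the lowest for Hoxa5, Hoxa6, Hoxa7 and Hoxa9. Hoxb6 was 5.07, 1.98, 1.42 and 61.3 FPKM in Lgr5-Apc, against 4.66, 1.16 and 11.5 FPKM in control. Hoxa9 was 9.94, 22.1, 18.3 and 0.771 FPKM in Lgr5-Apc, against 13.6, 9.22 and 11.1 FPKM in control. The mean log2(FPKM + 1) of the 19 genes of groups 4 to 9 was 1.61, 2.09, 1.49 and 2.37 in Lgr5-Apc, against 1.69, 1.22 and 1.91 in control. Cdx2, which sets intestinal identity and is also the driver gene of another group in the series, was 0.836, 0.248, 0.858 and 151 FPKM in Lgr5-Apc, against 2.71, 4.19 and 22.0 FPKM in control. Muc2, the main mucin of goblet cells, was 204, 36.6, 156 and 7725 FPKM in Lgr5-Apc, against 130.2, 345 and 767 FPKM in control. Reg3b, an antimicrobial lectin of gut epithelium, was 0.0829, 0, 1.11 and 504 FPKM in Lgr5-Apc, against 0, 0 and 26.6 FPKM in control. The library labelled Lgr5-Apc replicate 4 thus had the lowest group 13 score and the highest Cdx2, Muc2 and Reg3b of the 7. Replicate 2, at 3.38, was also under every control in the group 13 score. Low group 13 scores were also found in the Lgr5-Cdx2-Apc libraries, likewise labelled rectum, at 2.56 and 0.950, against 4.36 to 4.57 in the Cdx2-Apc libraries. The part of the sampling site in these values was not tested. Some differences and list medians below are given with and without replicate 4. Those given only once include it, also where it holds the lowest or highest value of the 7.

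**Figure D2:**
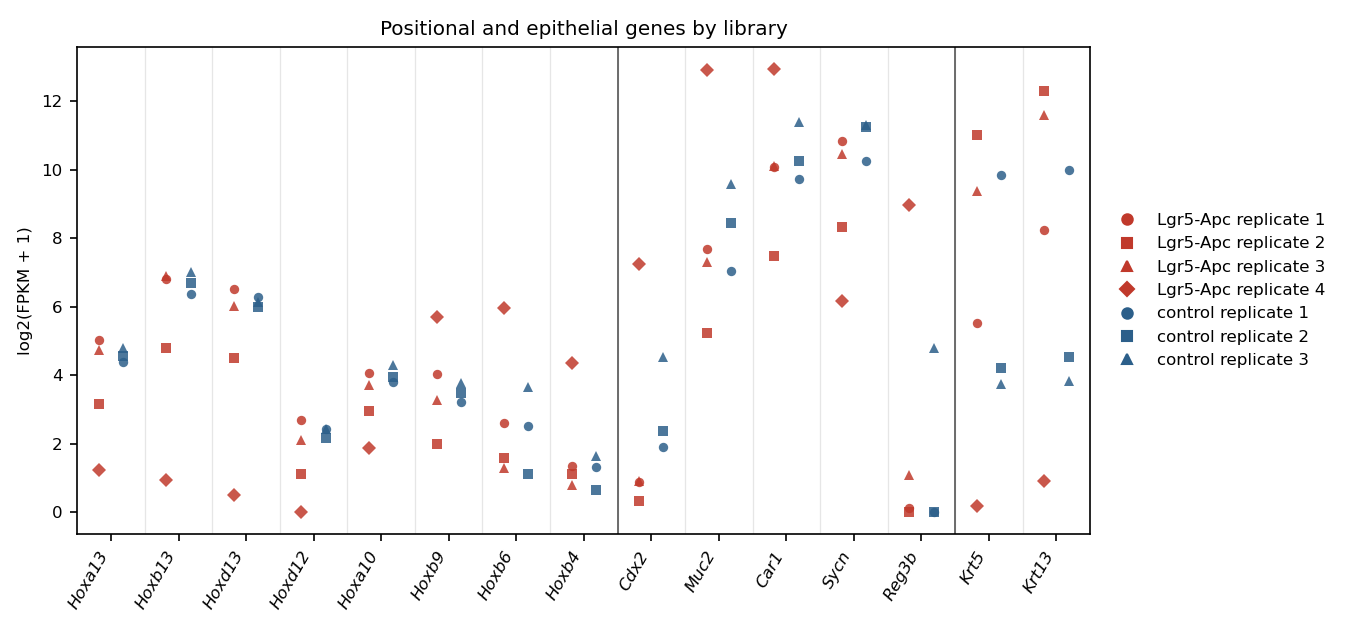
Levels of Hox genes (left of the first dark line), of Cdx2 and secretory and absorptive genes (middle) and of the squamous keratins Krt5 and Krt13 (right), each point 1 library. The vertical axis is log2(FPKM + 1), red marks Lgr5-Apc and blue control, and symbols mark replicates. The red diamond, Lgr5-Apc replicate 4, lies below all other points for Hoxb13 and Hoxd13 and above all other points for Cdx2 and Muc2.

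The deleted gene and the driver gene came first. Apc (chromosome 18, 34220924 to 34322552 on GRCm38) was 14.6, 14.1, 14.9 and 18.6 FPKM in Lgr5-Apc, against 18.8, 15.9 and 16.5 FPKM in control. Replicates 1 to 3 lay below every control and replicate 4 within their range. The log2 difference, Lgr5-Apc minus control on the log2(FPKM + 1) scale, was -0.13 ± 0.13 (SE; limma, adjusted p = 0.714), and it was -0.21 without replicate 4. Since the level sums all exons, it cannot tell whether recombination took place. Lgr5 (chromosome 10, 115450311 to 115587780), the receptor for R-spondins that marks crypt base stem cells, was 1.75, 1.30, 1.40 and 4.72 FPKM in Lgr5-Apc, against 3.60, 5.40 and 5.95 FPKM in control. Replicates 1 to 3 were lower than all controls, and replicate 4 exceeded control replicate 1. The log2 difference was -0.95 ± 0.31 (SE; adjusted p = 0.385), and whether the creER allele itself lowers the Lgr5 count is not given by a level per gene. Lgr5 was 4.48 and 3.77 FPKM in the Lgr5-Cdx2-Apc libraries, whose title names the same Lgr5 driver, against 2.81, 3.77 and 4.16 FPKM in Cdx2-Apc. In bulk tissue, fewer cells of a type and less RNA per cell cannot be told apart, here and in every list below. For Cdx2 the difference was -0.60 ± 1.52 (SE; adjusted p = 0.905) with replicate 4 and -2.23 without it.

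Over all genes, 0 rose and 2 fell in Lgr5-Apc at a Benjamini-Hochberg adjusted p below 0.05 in limma, which is 0.0125% of the 15961 tested. The median log2 difference of all genes was 0.03, with 8552 above 0 and 7409 below. At an unadjusted p under 0.05 there were 1850 genes, or 11.6%, of which 1047 were higher (6.56%) and 803 lower (5.03%). Genes whose 4 Lgr5-Apc values and 3 control values did not overlap numbered 665 on the higher side (4.17%) and 631 on the lower side (3.95%). These shares are the background against which the counts in each list below are given. A gene under 1 FPKM in every library of 1 group passed the filter only through the other group. The direction of such a gene is partly set by the filter.

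The 2 genes that passed were both listed at 0 in every Lgr5-Apc library, and their sequences are shown because they carry the calls. Snora61 (chromosome 4, 132310240 to 132310369, plus strand) is a small nucleolar RNA of the H/ACA class, whose members guide the conversion of uridine to pseudouridine in other RNAs. Ighv1-85 (chromosome 12, 116000028 to 116000461, minus strand) is a variable segment of the antibody heavy chain. Capitals mark the ACA box of Snora61, which stands 3 bases before its 3′ end, and the Ighv1-85 sequence is the stretch from base 52 to the last, base 351, of its spliced transcript. Both are GENCODE M21 transcripts on GRCm38, 5′ to 3′.
Snora61: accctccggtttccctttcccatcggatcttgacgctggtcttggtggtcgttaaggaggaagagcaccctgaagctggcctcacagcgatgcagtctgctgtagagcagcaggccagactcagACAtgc
Ighv1-85: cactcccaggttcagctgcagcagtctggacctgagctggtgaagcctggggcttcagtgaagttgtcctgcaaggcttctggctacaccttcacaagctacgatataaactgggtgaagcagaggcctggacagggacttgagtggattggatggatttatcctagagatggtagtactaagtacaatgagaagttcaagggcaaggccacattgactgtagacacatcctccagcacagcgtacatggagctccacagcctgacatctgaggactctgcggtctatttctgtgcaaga

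Snora61 was listed at 0 in Lgr5-Apc, against 209, 21.9 and 244 FPKM in control (adjusted p = 0.00704). It was listed at 0 in the 3 Cdx2-Apc and 2 Lgr5-Cdx2-Apc libraries too, whose zeros enter the spread behind that p, so the zeros are not particular to Lgr5-Apc. It lies within Snhg12, a host gene of small nucleolar RNAs, which was 15.9, 22.9, 18.5 and 9.78 FPKM in Lgr5-Apc, against 15.7, 14.0 and 13.5 FPKM in control. Snora44, from the same host, was listed at 0 in 2 of the 4 Lgr5-Apc libraries and was 104 and 41.2 FPKM in the others, against 0, 34.7 and 78.2 FPKM in control. Neither the host nor this neighbour thus shared the pattern of Snora61. Short RNAs as a class were tested for 156 members, of which 33 were lower and 1 higher at an unadjusted p under 0.05, and 17 lower and 1 higher without overlap. The share of FPKM taken by short RNAs, given above, was lower in every Lgr5-Apc library than in any control. The part of that share in the Snora61 call was not tested. The call was lost in the fit to the 7 libraries alone (adjusted p = 0.151), with a pseudocount of 5 FPKM (adjusted p = 0.115) and with the smooth muscle score as a covariate (adjusted p = 0.253).

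Ighv1-85 was listed at 0 in Lgr5-Apc, against 3.32, 4.28 and 4.94 FPKM in control (adjusted p = 0.00353). The Cdx2-Apc libraries had 0.972, 1.71 and 0.722 FPKM, and it was listed at 0 in both Lgr5-Cdx2-Apc libraries. Its transcript is 94.02% identical to that of Ighv1-84, the most alike of the 112 variable segments compared, so reads may be split between near copies. The table held 179 antibody segments, and 18, 9, 23 and 18 of them were above 0 in Lgr5-Apc, against 18, 151 and 122 in control. Their summed FPKM was 19.9, 23.3, 57.6 and 16.7 in Lgr5-Apc, against 30.0, 1738 and 749 in control. Control replicate 1 therefore matched the Lgr5-Apc libraries in its overall antibody content, while its Ighv1-85 level did not. Of the 84 segments tested, 63 were lower at an unadjusted p under 0.05 and 12 without overlap. Segments at 1 FPKM or more numbered 7, 5, 11 and 6 in Lgr5-Apc, against 10, 107 and 92 in control, so most passed the filter through control replicates 2 and 3 and these counts support nothing by themselves. The Ighv1-85 call was lost with the smooth muscle score as a covariate (adjusted p = 0.0802) and in the fit to 6 libraries without Lgr5-Apc replicate 4 (adjusted p = 0.0998), where Snora61 was lost as well (adjusted p = 0.372).

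The gene with the next smallest p was Eno1b, an intron-less copy of the enolase gene Eno1. Eno1b (chromosome 18, 48045335 to 48048412) was 0.0986, 0.0495, 0.144 and 0 FPKM in Lgr5-Apc, against 15.5, 9.49 and 14.0 FPKM in control. All 4 Lgr5-Apc libraries were near 0, and all controls were far above them. The log2 difference was -3.68 ± 0.55 (SE), and it did not pass in the fit to all 12 libraries (adjusted p = 0.221). The Cdx2-Apc libraries, whose spread enters that fit, had 9.16, 0.919 and 0.397 FPKM. It passed in the fit to the 7 libraries alone (adjusted p = 0.00544) and in that fit without Lgr5-Apc replicate 4 (adjusted p = 0.0260). Eno1, which encodes the enolase of most tissues, was 64.3, 60.5, 79.8 and 44.0 FPKM in Lgr5-Apc, against 35.5, 33.6 and 31.8 FPKM in control, again without overlap but in the other direction. Its log2 difference was 0.84 ± 0.23 (SE; adjusted p = 0.379). The transcripts of the pair are 99.46% identical over 1652 aligned bases, so reads can be split between them, and neither level can be taken as that of its own gene. Their sum was 64.4, 60.5, 79.9 and 44.0 FPKM in Lgr5-Apc, against 51.0, 43.1 and 45.8 FPKM in control, and in the sum the groups overlapped.

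In the Wnt lists, 0 of 13 destruction complex and 0 of 19 Wnt target genes passed. The median log2 difference was 0.15 for the destruction complex, with 2 members higher at an unadjusted p under 0.05, and -0.04 for the targets, with 1 member, Lgr5, lower. Gsk3a, a kinase of the complex, was 23.8, 24.6, 28.3 and 27.3 FPKM in Lgr5-Apc, against 16.9, 12.9 and 21.5 FPKM in control. Axin1, its limiting scaffold, was 15.6, 16.5, 20.4 and 14.9 FPKM in Lgr5-Apc, against 14.2, 9.78 and 13.2 FPKM in control. Neither pair of ranges overlapped, with log2 differences of 0.60 ± 0.16 for Gsk3a and 0.42 ± 0.16 for Axin1 (SE; adjusted p = 0.379 and 0.395). The GC share of their longest transcripts, 59.8% and 56.6%, falls in the highest of 5 groups described below. In that group 273 genes were higher and 7 lower without overlap. The part of GC share in these 2 differences was not tested beyond a fit with the GC trend removed, described below. Ctnnb1, beta-catenin itself, differed by 0.08 ± 0.17 and Gsk3b by 0.36 ± 0.17 (SE; adjusted p = 0.866 and 0.446).

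Among the targets, the feedback inhibitor Axin2, a common readout of Wnt signalling, was 6.87, 9.37, 5.85 and 11.7 FPKM in Lgr5-Apc, against 9.31, 6.98 and 10.8 FPKM in control. The feedback inhibitor Nkd1 was 7.52, 1.79, 4.01 and 3.87 FPKM in Lgr5-Apc, against 5.52, 5.63 and 5.59 FPKM in control. For Axin2 the groups overlapped fully, with a log2 difference of -0.11 ± 0.23, and for Nkd1 only replicate 1 exceeded the controls (-0.42 ± 0.37, SE; adjusted p = 0.871 and 0.661). The ubiquitin ligase Rnf43, which removes Wnt receptors, differed by 0.00 ± 0.20 and the crypt factor Sox9 by 0.04 ± 0.17 (SE), both of which turned negative under quantile normalization. Myc, a growth regulator, differed by 0.39 ± 0.49 and the cyclin Ccnd1 by -0.32 ± 0.26 (SE). Cd44, an adhesion receptor, was highest in replicate 2 and control replicate 1, at 10.6, 119, 54.2 and 39.2 FPKM in Lgr5-Apc, against 59.0, 12.1 and 15.6 FPKM in control. A further 6 listed targets, Notum, Sp5, Wif1, Dkk2, Lef1 and Mmp7, did not reach 1 FPKM in 2 of the 7 libraries. The target score was 2.92, 3.27, 3.06 and 3.04 in Lgr5-Apc, against 3.26, 2.98 and 3.16 in control, and the median without replicate 4 was -0.27.

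**Figure D3:**
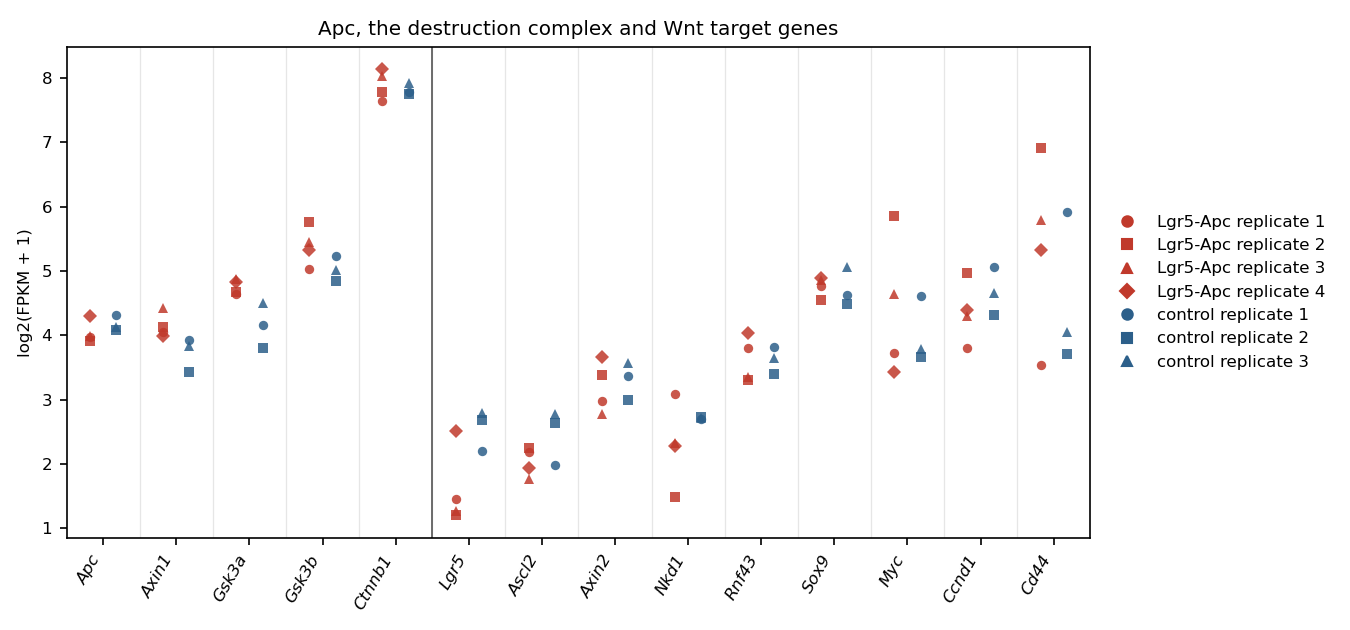
Levels of Apc and other destruction complex genes (left of the dark line) and of Wnt target genes (right), each point 1 library, as log2(FPKM + 1). Red marks Lgr5-Apc and blue control, and symbols mark replicates. Gsk3a and Axin1 separate the groups, Lgr5 is low in 3 of the 4 Lgr5-Apc libraries, and Axin2, Sox9 and Rnf43 overlap.

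Stem cell and proliferation genes gave no calls. Of 12 crypt stem cell genes tested, 1 (Lgr5) was lower at an unadjusted p under 0.05, and the list median was -0.18. Ascl2, the transcription factor of the crypt base, was 3.57, 3.77, 2.40 and 2.84 FPKM in Lgr5-Apc, against 2.94, 5.19 and 5.84 FPKM in control, and the groups overlapped at control replicate 1. Of 24 cell cycle genes, 0 were under 0.05 unadjusted, with a median of -0.17. Mki67, a marker of dividing cells, was 15.6, 23.0, 27.5 and 29.3 FPKM in Lgr5-Apc, against 34.7, 29.7 and 27.5 FPKM in control. Top2a, a topoisomerase of replicating cells, was 13.5, 23.3, 24.1 and 25.9 FPKM in Lgr5-Apc, against 29.8, 26.2 and 26.0 FPKM in control, the single member of the list without overlap, though Lgr5-Apc replicate 4 and control replicate 3 nearly met. Fetal-like and regenerative genes had a median of 0.14 over 13 members. Anxa3, an annexin of that list, was 74.7, 24.3, 63.3 and 16.0 FPKM in Lgr5-Apc, against 91.3, 99.9 and 84.0 FPKM in control, a log2 difference of -1.28 ± 0.48 without overlap (SE; adjusted p = 0.398).

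Several genes of absorptive epithelium had lower values in all 4 Lgr5-Apc libraries, though 0 passed. Of 30 colonocyte genes tested, 6 were lower and 0 higher at an unadjusted p under 0.05, 7 were lower without overlap, and the median was -0.52. Slc20a1, a phosphate transporter, was 43.5, 18.1, 36.0 and 38.7 FPKM in Lgr5-Apc, against 95.1, 117 and 113 FPKM in control. Every Lgr5-Apc library was thus far under the lowest control, and the log2 difference was -1.70 ± 0.38 (SE; adjusted p = 0.379). Slc26a3, the chloride-bicarbonate exchanger of surface colonocytes, was 227, 38.4, 156 and 78.8 FPKM in Lgr5-Apc, against 253, 415 and 367 FPKM in control. Slc26a2, a sulfate transporter, was 228, 76.8, 195 and 190.2 FPKM in Lgr5-Apc, against 246, 369 and 318 FPKM in control. Saa1, an acute-phase protein also made by colon epithelium, was 62.3, 53.9, 114 and 36.6 FPKM in Lgr5-Apc, against 160.4, 257 and 456 FPKM in control. In each of these 3 the groups did not overlap, with log2 differences of -1.72 ± 0.73, -0.94 ± 0.38 and -2.10 ± 0.72 (SE; adjusted p = 0.407, 0.407 and 0.385).

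The colonocyte score was 6.36, 4.89, 6.48 and 6.57 in Lgr5-Apc, against 6.37, 6.85 and 7.13 in control. Replicate 2, the most squamous library, had the lowest score, and without it the colonocyte median was -0.14. The squamous score moves against the colonocyte score in that library, and its part in the list's difference was not tested beyond the fit with the squamous score as a covariate, where the median was -0.28. General columnar epithelium genes had a median of -0.37 over 16 members, with 0 under 0.05 unadjusted, and 0.12 without replicate 2. Krt18, a keratin of columnar cells, was 149, 33.3, 154 and 178 FPKM in Lgr5-Apc, against 139.7, 145 and 193 FPKM in control, so only replicate 2 was outside the control range.

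Secretory lines showed no call either. Goblet cell genes had a median of -0.22 over 21 members with 0 under 0.05 unadjusted, and the median was 0.27 without replicate 2 and -0.73 without replicate 4. Zg16, a lectin of mucus, was 584, 74.8, 494 and 1749 FPKM in Lgr5-Apc, against 379, 1821 and 1710.1 FPKM in control. Of 14 enteroendocrine genes 1 was lower and 0 were higher at an unadjusted p under 0.05. That gene, Insl5, a hormone of hindgut endocrine cells, was 20.8, 2.49, 24.6 and 3.96 FPKM in Lgr5-Apc, against 15.8, 93.2 and 76.9 FPKM in control, with overlap at control replicate 1. Tuft cell genes had a median of 0.11 over 9 members, 0 of them under 0.05 unadjusted. Their leading member Pou2f3, a factor of tuft cells that squamous epithelium also uses, was 0.106, 21.1, 4.54 and 0.948 FPKM in Lgr5-Apc, against 1.02, 0.0597 and 0.147 FPKM in control. Posterior gut genes had a median of -0.85 over 15 members, and -0.45 without replicate 4, with 1 of them, Insl5, lower at an unadjusted p under 0.05. Sycn, a secretory granule protein abundant in these libraries, was 1841, 320.3, 1411 and 71.5 FPKM in Lgr5-Apc, against 1221, 2459 and 2527 FPKM in control.

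The largest increases by the naming rule were led by genes of cornifying epithelium, and 0 of them passed. Lce3f, a late cornified envelope gene, was 5.83, 216, 140.0 and 0.798 FPKM in Lgr5-Apc, against 0.670, 0.122 and 0 FPKM in control. Klk9, a kallikrein protease, was 1.24, 51.5, 45.5 and 0.186 FPKM in Lgr5-Apc, against 0.140, 0 and 0 FPKM in control. Their log2 differences were 4.33 ± 1.56 and 3.10 ± 1.22 (SE; adjusted p = 0.391 and 0.402). In both, replicates 2 and 3 carried the difference, while replicate 1 lay a few FPKM or less above the highest control and replicate 4 just above it. Replicates 2 and 3 were also far above the other 5 libraries for Gsdma, an epidermal gasdermin, for Anxa9, an annexin, for Psors1c2, expressed in skin, and for Dkkl1, with log2 differences of 2.87, 2.75, 2.65 and 2.09. In Dnase1l2, a nuclease of differentiating keratinocytes, replicate 4 stood out as well, at 2.51, 33.8, 24.1 and 12.05 FPKM in Lgr5-Apc, against 1.51, 1.15 and 2.28 FPKM in control. Sphk1, a sphingosine kinase, and Rnf39, a ring finger protein, differed by 1.81 and 1.79.

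As lists, squamous genes had a median log2 difference of 2.17 over 32 members, with 31 above 0, 2 higher at an unadjusted p under 0.05 and 0 without overlap. The median was 1.22 without replicate 2, 1.5 without replicate 3, 3.44 without replicate 4 and 3.35 without control replicate 1. Lor, which encodes the envelope protein loricrin, was 11.1, 867, 484 and 0 FPKM in Lgr5-Apc, against 2.68, 0.431 and 0.594 FPKM in control. Hair and sebaceous gland genes had a median of 1.83 over 7 members tested of 16 listed, and 0.95 without replicate 2. Of the members tested, Krt79, Scd3, Elovl3 and Awat2 were under 1 FPKM in replicates 1 and 4, and with no filter the median over all 16 was 0.24. Fa2h, a fatty acid hydroxylase, was 16.5, 107, 48.8 and 51.5 FPKM in Lgr5-Apc, against 14.8, 14.0 and 25.7 FPKM in control, and it was the 1 member under 0.05 unadjusted, with a log2 difference of 1.35 ± 0.51 (SE; adjusted p = 0.399). The hair shaft and root sheath keratins of the list did not reach 1 FPKM in 2 of the 7 libraries. Skeletal muscle genes had a median of 1.41 over 10 members and 0.32 without replicate 2. It was 0.79 over 19 members with no filter and -0.69 over the 2 left by the stricter filter, 5 FPKM in 3 of the 7 libraries. Of the 10 tested, 9 were above 0, but 0 were higher and 1 was lower at an unadjusted p under 0.05. That member, Eno3, was 89.2, 38.5, 82.8 and 7.66 FPKM in Lgr5-Apc, against 118, 104 and 132 FPKM in control, without overlap. Mb, the myoglobin gene, was 1.94, 47.7, 0.779 and 0.119 FPKM in Lgr5-Apc, against 0, 0.0480 and 0.159 FPKM in control.

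The largest spread within Lgr5-Apc was in the same tissue. Krt4 and Krt13, paired keratins of moist stratified epithelium, were 223, 7351, 3597 and 0.881 FPKM and 304, 5071, 3100.3 and 0.880 FPKM in Lgr5-Apc, against 701, 15.2 and 9.46 FPKM and 1015, 22.0 and 13.1 FPKM in control. Krt10, a keratin of cornifying epidermis, was 74.8, 5939, 3547 and 2.38 FPKM in Lgr5-Apc, against 282, 8.23 and 9.93 FPKM in control. Its partner Krt1, with Stfa3, Calm4, Krtdap, Lgals7, Mt4 and Fam25c, completed the 10 genes of widest spread, with SDs of log2(FPKM + 1) between 4.89 and 5.60 over the 4 libraries. All 10 had the same order, with replicate 2 highest, then replicate 3, then replicate 1, then replicate 4, and control replicate 1 was above the other controls in each.

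**Figure D4:**
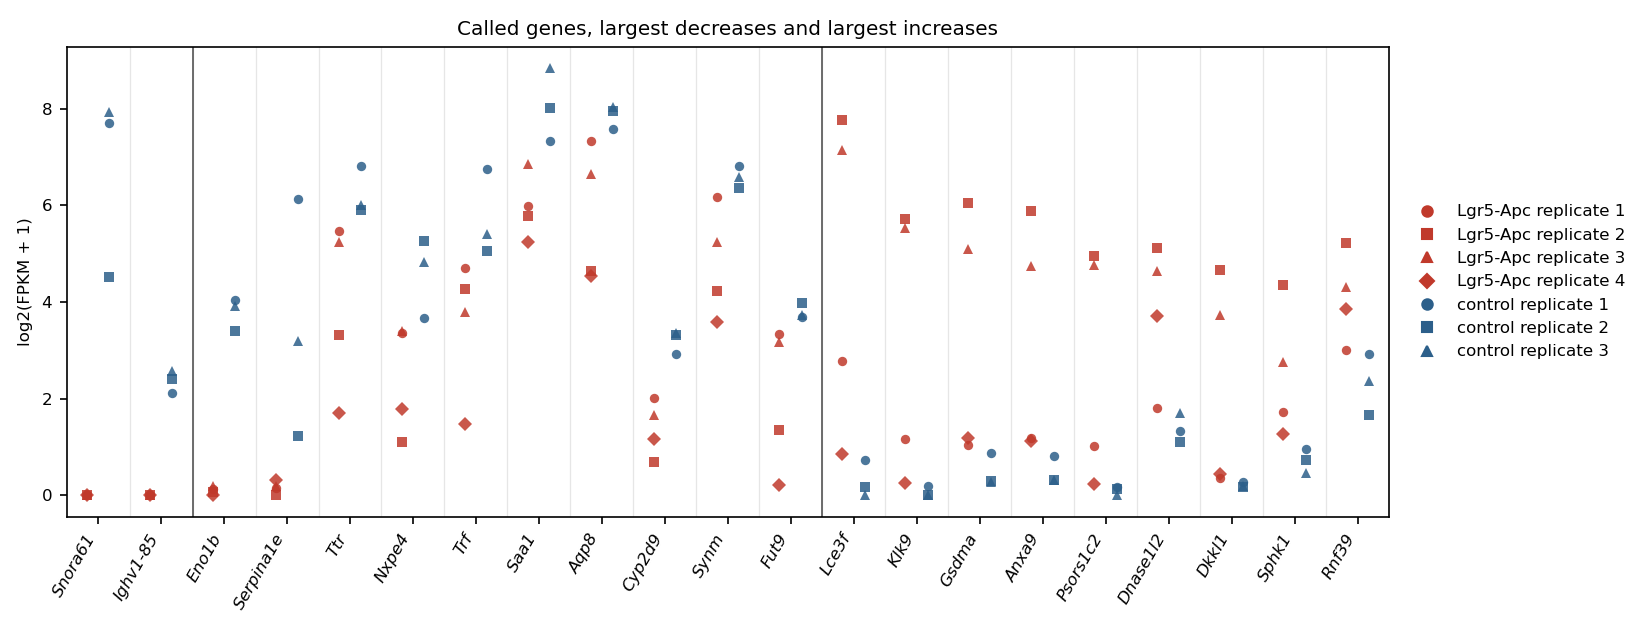
The 2 genes called (left), the 10 largest decreases (middle) and 9 of the 10 largest increases (right) by the naming rule, as log2(FPKM + 1), each point 1 library. Red marks Lgr5-Apc and blue control, and symbols mark replicates. In these increases Lgr5-Apc replicates 2 and 3 (square and triangle) are the 2 highest, while Eno1b is near 0 in all 4 Lgr5-Apc libraries.

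Contractile genes of the muscle layers lay lower in Lgr5-Apc, with 0 called. Of 22 smooth muscle genes, all had a negative difference, 15 were at an unadjusted p under 0.05, 3 did not overlap, and the median was -1.08. The score was 6.99, 5.23, 6.20 and 5.09 in Lgr5-Apc, against 7.15, 6.82 and 7.10 in control. Replicate 1 was within the control range and replicates 2 and 4 were lowest. Synm, the intermediate filament protein synemin, was 71.2, 17.8, 36.8 and 11.1 FPKM in Lgr5-Apc, against 112, 80.9 and 95.5 FPKM in control. Its log2 difference was -1.78 ± 0.55, and desmin, Des, at 262, 71.6, 176 and 70.0 FPKM in Lgr5-Apc, against 292, 265 and 371 FPKM in control, differed by -1.30 ± 0.47 (SE; adjusted p = 0.379 and 0.391). Cald1, an actin-binding regulator of contraction, and Flnc, a muscle filamin, differed by -1.52 ± 0.53 and -1.36 ± 0.48 (SE). The median was -0.93 without replicate 2 and -0.91 without replicate 4. Replicates 2 and 4 were thus the library with most squamous and skeletal muscle RNA and the one with the lowest group 13 Hox score. Replicate 3, at 6.20, was also under every control. With the squamous score as a covariate the median was -1.17.

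Enteric neurons had a median of -0.76 over 14 members with 1 lower and 0 higher at an unadjusted p under 0.05. That member, Vip, the neuropeptide of inhibitory and secretomotor neurons, was 3.79, 0, 1.95 and 6.91 FPKM in Lgr5-Apc, against 6.003, 14.7 and 14.8 FPKM in control. Its log2 difference was -1.89 ± 0.63 (SE; adjusted p = 0.385), and replicate 4 exceeded control replicate 1. Enteric glia had a median of -0.33 over 8 members, of which 3 were lower at an unadjusted p under 0.05 and 2 without overlap. S100b, 1 of the 3, and Cdh19, 1 of the 2, were under 1 FPKM in every Lgr5-Apc library. Both passed the filter through the controls, so these counts support nothing by themselves. Their levels are low, and the median was -0.56 with a pseudocount of 0.1 FPKM, -0.097 with one of 5 FPKM and 0.20 for the 1 member, Erbb3, left by the stricter filter. Interstitial cells of Cajal, the pacemakers of gut muscle, had a median of -0.49 over 4 members, with 1 of them, Etv1, lower at an unadjusted p under 0.05. Fibroblast genes had a median of -0.24 over 18 members and endothelial genes of -0.48 over 14, and neither list had a member under 0.05 unadjusted. Genes of the epithelial-mesenchymal transition list had a median of -0.16 over 16 members, with 2 lower at an unadjusted p under 0.05. Zeb1, a repressor of epithelial genes that stroma and muscle also express, was 6.10, 2.05, 2.98 and 2.08 FPKM in Lgr5-Apc, against 6.39, 7.30 and 6.68 FPKM in control.

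In the antibody-secreting line the control libraries themselves disagreed, and 0 listed genes passed. Of 8 B and plasma cell genes tested, 5 were lower at an unadjusted p under 0.05 and 2 without overlap, and the median was -0.99. It depended on the low members, at -2.65 with a pseudocount of 0.1 FPKM, -0.31 with one of 5 FPKM, -0.47 over 16 members with no filter and 0.22 over the 3 left by the stricter filter. Igkc, the kappa light chain constant gene, was 4.30, 0.238, 3.88 and 1.97 FPKM in Lgr5-Apc, against 7.78, 491 and 187 FPKM in control. Jchain, which joins secreted IgA and IgM, was 0.872, 0.954, 3.44 and 1.02 FPKM in Lgr5-Apc, against 1.67, 94.1 and 42.6 FPKM in control. Control replicate 1 was close to the Lgr5-Apc libraries in both, while control replicates 2 and 3 were far above. The log2 difference of Igkc was -4.90 ± 1.27 and that of Jchain -3.22 ± 1.09 (SE; adjusted p = 0.379 and 0.385). The list median was -1.45 without control replicate 1 and -0.56 without control replicate 2. Without control replicate 1, limma called 30 genes lower in place of 2, most of them antibody segments, and 1 gene higher, the unnamed model Gm12352. Most such segments passed the filter through control replicates 2 and 3, the controls left here, so the count of 30 supports nothing by itself.

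Among other immune lists, 1 of 16 macrophage and dendritic cell genes was lower at an unadjusted p under 0.05, with a median of -0.36. That gene, Aif1, a calcium-binding protein of macrophages, was 0.828, 0.523, 0.463 and 0.499 FPKM in Lgr5-Apc, against 1.67, 2.56 and 2.24 FPKM in control. The groups did not overlap, with a log2 difference of -0.99 ± 0.17 (SE; adjusted p = 0.336). Aif1 was under 1 FPKM in every Lgr5-Apc library and passed the filter through the controls, so its difference supports nothing by itself. MHC class II genes had a median of -0.61 over 6 members and neutrophil genes of 1.11 over 4, with 0 under 0.05 unadjusted in either. The neutrophil median was -0.024 over 8 members with no filter, and the 1 member left by the stricter filter, Ly6g, lay on the other side at -2.24. Ly6g, a surface marker of mouse neutrophils, was 124, 25.6, 114 and 1.13 FPKM in Lgr5-Apc, against 102, 169 and 160.2 FPKM in control. S100a8, an alarmin of neutrophils that stressed keratinocytes also make, was 0.618, 31.9, 21.7 and 0 FPKM in Lgr5-Apc, against 1.90, 0.193 and 0.301 FPKM in control, with the squamous replicates 2 and 3 highest. Of 18 T and NK cell genes only Trbc2 was tested, and of 11 mast cell genes only Cma1 and Kit, with 0 under 0.05 unadjusted. Interferon response genes had a median of -0.26 over 20 members and chemokines and cytokines of -0.53 over 9, each with 1 lower at an unadjusted p under 0.05.

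Metabolic lists gave no calls. Of 16 genes of glycolysis and the enolases, 4 were higher and 2 lower at an unadjusted p under 0.05, with a median of 0.32. Apart from the enolases, Gpi1, the glucose-6-phosphate isomerase, was 102, 99.2, 120.3 and 121 FPKM in Lgr5-Apc, against 79.6, 73.7 and 99.0 FPKM in control. Hk2, an inducible hexokinase, was 29.4, 30.0, 34.9 and 37.7 FPKM in Lgr5-Apc, against 26.9, 19.8 and 27.9 FPKM in control. Each had a log2 difference of 0.40 without overlap, with SEs of 0.15 and 0.17 (adjusted p = 0.401 and 0.407). Gapdh, also glycolytic and highly expressed in most tissues, was at most 1.13 FPKM in all 7 libraries, and the cause was not tested. Oxidative phosphorylation genes had a median of -0.05 over 24 members with 0 under 0.05 unadjusted. Ribosomal protein genes had a median of -0.03 over 19 members, and Rps4l, a copy of Rps4x, was 24.6, 33.4, 27.4 and 16.3 FPKM in Lgr5-Apc, against 8.92, 10.4 and 12.4 FPKM in control. It differed by 1.16 ± 0.22 without overlap (SE; adjusted p = 0.336), and as a copy its level is uncertain. Immediate early and stress genes had a median of 0.31 over 18 members, with 1, the chaperone Hsph1, lower at an unadjusted p under 0.05. Hsph1 was 4.75, 5.92, 6.37 and 5.17 FPKM in Lgr5-Apc, against 7.35, 12.2 and 9.61 FPKM in control.

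The largest decreases by the naming rule, beside Eno1b, Synm and Saa1, included genes of gut epithelium and of secreted plasma proteins. Aqp8, a water channel of colonocytes, was 161, 23.8, 99.7 and 22.4 FPKM in Lgr5-Apc, against 191, 248 and 263 FPKM in control. Nxpe4 was 9.19, 1.16, 9.57 and 2.44 FPKM in Lgr5-Apc, against 11.7, 37.6 and 27.3 FPKM in control. Their log2 differences were -2.07 ± 0.89 and -2.17 ± 0.59 (SE; adjusted p = 0.410 and 0.379), and in both replicates 2 and 4 were lowest. Fut9, a fucosyltransferase that makes Lewis antigens, and Cyp2d9, a cytochrome P450, differed by -1.78 ± 0.64 and -1.82 ± 0.34 (SE). Cyp2d9 was 3.02, 0.617, 2.16 and 1.25 FPKM in Lgr5-Apc, against 6.62, 8.97 and 9.23 FPKM in control. Serpina1e, a hepatic protease inhibitor, was 0.110, 0, 0.140 and 0.252 FPKM in Lgr5-Apc, against 69.6, 1.35 and 8.15 FPKM in control. Ttr and Trf, the plasma carriers transthyretin and transferrin, differed by -2.31 ± 0.79 and -2.17 ± 0.74 (SE; adjusted p = 0.385 for each).

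Differences also followed the base composition of transcripts. The 12866 protein-coding genes with a known sequence were split into 5 groups by the GC share of their longest transcript. The median log2 difference was -0.15 in the group of lowest GC share (31.0% to 44.0%) and 0.26 in the highest (55.6% to 76.3%), with the groups between in order. In the lowest GC group 7 genes were higher and 268 lower without overlap, and in the highest 273 were higher and 7 lower. Gsk3a, Axin1 and Eno1, described above, fall in the highest group. The part of GC share in their differences was not tested beyond the fit with the GC trend removed, described below. At an unadjusted p under 0.05 the counts were 18 higher and 278 lower in the lowest group and 449 and 18 in the highest. By library, the median deviation of the highest group minus that of the lowest was 0.337, 0.200, 0.113 and 0.0843 in Lgr5-Apc, against -0.196, -0.517 and 0.00265 in control, so the groups did not overlap and control replicate 2 was the most extreme. Over the 15445 genes with a GC value, 1011 were higher and 773 lower at an unadjusted p under 0.05 before the trend on GC share was removed, and 868 and 720 after. Of the 1850 genes under 0.05 in the full table, 1195 were also under it after the removal. Both called genes passed there too, the smooth muscle median was -1.23, and the squamous median was 2.01.

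**Figure D5:**
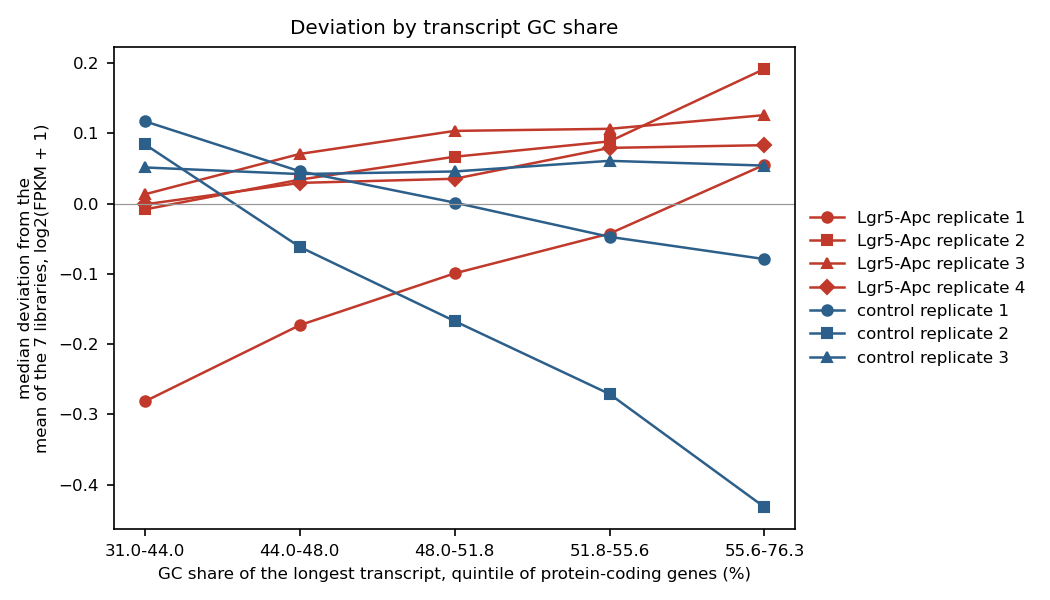
Median deviation from the mean of the 7 libraries, in log2(FPKM + 1), for protein-coding genes in 5 groups of rising transcript GC share (percent). Each line is 1 library, red for Lgr5-Apc and blue for control. Lgr5-Apc lines run upward with GC share, control replicates 1 and 2 run downward, and control replicate 3 is level.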

How the data were processed

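RNA was measured in 7 rectum libraries, 4 Lgr5-Apc and 3 control, grouped by title and genotype. Per the labels' protocols, RNA was extracted with a column kit, treated with DNase and made into directional libraries. STAR, Cufflinks, Cuffdiff and mm10 are named in the submitters' processing notes, without versions, and the gene annotation is not given in the sources used here. The authors deposited FPKM, 1 value per gene and library, so depth in reads is unknown and no counting interval or floor was computed. The table held 27831 lines, of which 25 had names turned into dates, and for each of 46 repeated symbols on 94 lines the line of highest mean was kept. Positions came from GENCODE M21, which held 95.9% of the symbols.

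Values were taken as log2(FPKM + 1). limma 3.58.1 (R 4.3.3, moderation with an intensity trend, two-sided) was fitted to all 12 libraries with 1 term per group, and p-values were adjusted by Benjamini-Hochberg over 15961 genes. The same procedure was tested on simulated data. The members, the 34 gene lists and the alternatives were chosen with earlier results of these data known. The naming rule took Apc, Lgr5 and Cdx2, called genes, and the 10 largest increases and decreases among genes at an unadjusted p under 0.05 without overlap whose higher group averaged 5 FPKM or more. It also took the sex-linked genes, the 4 members of smallest p per list and the 10 genes of largest SD in Lgr5-Apc. Of these, not all are named, and 1 of the 10 increases is not reported here. Axin2, Nkd1, Rnf43, Sox9, Myc, Ccnd1, Cd44, Ctnnb1 and Slc26a3 were among the genes named outside it, after their values were seen. So were Gapdh, Muc2, Reg3b, Snhg12, Snora44 and the Hox genes other than Hoxa10 and Hoxd12. Alternatives covered pseudocounts, filters, scaling, weights, robust moderation, covariates, a replicate block and leaving out each library. A GC correction, short RNA removal and a 6-library fit were added after seeing the data.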

Additional observations from a re-analysis of the deposited data

Results flagged for a closer look

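In 7 of 104 sets of 4 Lgr5-Apc values examined, list scores and genes taken by the naming rule, the highest or lowest library lay apart from the other 3 by Dixon's 95% critical value. Chance alone flags about 1 in 20 such groups if values are normally distributed and groups independent. These sets share libraries and genes, and some genes were named for their spread, so that rate is no baseline for the 7. Lgr5-Apc replicate 4 was high in Cdx2, at 151 FPKM, against 0.248 to 0.858 FPKM in the other 3. It was low in the epithelial-mesenchymal transition score, at 2.31. Lgr5-Apc replicate 2 was low in the colonocyte score, at 4.89, in the columnar keratin Krt18, at 33.3 FPKM, and in the sulfate transporter Slc26a2, at 76.8 FPKM. Lgr5-Apc replicate 3 was high in Jchain, at 3.44 FPKM, against 1.02 FPKM or less in the others. Lgr5-Apc replicate 1 was low in Top2a, at 13.5 FPKM, against 23.3 FPKM or more. The part of tissue composition in these values was not tested.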

How the results depend on the processing

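The labels do not settle the controls' genotype, depth is unknown, and 4 against 3 libraries whose tissue marker levels differ limit every value. Of the results on named genes under the alternatives, 1607 kept direction and side of the threshold, 36 changed sign, 8 lost a call and 3 gained one. With 0 genes higher and 2 lower as the base, the genes called lower were 1 with a pseudocount of 5 FPKM, 1 under the stricter filter, 1 with short RNAs (Snora61 itself among them) removed and totals made equal, 1 in the fit to 6 libraries without Lgr5-Apc replicate 4, 0 with the smooth muscle covariate and 2, beside 1 higher (Klk10, adjusted p = 0.0124), with the squamous covariate. At an unadjusted p under 0.05, 517 were higher and 523 lower in the fit to the 7 libraries alone, 1881 and 1220 with library quality weights, 306 were higher with the smooth muscle covariate, and 431 were lower under the stricter filter, which tests fewer genes and left 363 lower without overlap. In the 6-library fit 1030 genes were higher and 1423 lower without overlap. Leaving out each library in turn gave 0 to 1 genes called higher, 2 to 30 called lower, 338 to 1816 higher and 470 to 1110 lower at an unadjusted p under 0.05, and 740 to 1649 higher and 853 to 1423 lower without overlap. The count of 30 came without control replicate 1, where Igkc passed (adjusted p = 0.0349) and most were antibody segments, with the limit given above. The counts of 338 and 470 came without control replicate 2 and control replicate 3, and 1816 and 1649 without Lgr5-Apc replicate 1. The count called lower was 4 without control replicate 3 or without Lgr5-Apc replicate 3.

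Libraries that share a replicate number did not deviate together, with correlations of -0.277, -0.323 and -0.173. Tissue marker scores differed between the libraries, so these correlations cannot tell whether the numbers mark a shared litter or day. With a replicate block, which drops Lgr5-Apc replicate 4, 0 genes were called lower, 1267 were lower at an unadjusted p under 0.05, Ighv1-85 had an adjusted p of 0.0935 and Snora61 of 0.116, and Rnf43 differed by -0.13.

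The log2 differences that changed sign were of genes not called. Rnf43, at 0.00, was -0.029 under median-of-ratios scaling, -0.11 under quantile normalization, -0.15 with quality weights, -0.17 with the GC correction, -0.068 with short RNAs removed and totals made equal and -0.13 in the 6-library fit. Sox9 was -0.087 under quantile normalization, -0.041 with quality weights and -0.035 with short RNAs removed and totals made equal. Cdx2 was 0.060 with a pseudocount of 5 FPKM, and Xist was 0.064 with the GC correction. With the squamous covariate Cdx2 was 0.89, Lgals7 -1.10, Krt13 -1.10, Stfa3 -0.75, Krt4 -0.71, Krt1 -0.24, Krtdap -0.057 and Myc -0.13. With the smooth muscle covariate Cd44 was -0.10, Ctnnb1 -0.091 and Nkd1 0.33. Leaving out 1 library gave -0.13 to 0.11 for Rnf43, -2.23 to 0.20 for Cdx2, -0.77 to 0.024 for Krt18, -0.088 to 0.72 for Myc, -0.26 to 0.20 for Xist, -0.27 to 0.028 for Axin2 and -0.079 to 0.21 for Sox9. Why these values moved was not tested.

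List medians near 0 changed sign most often. Beside those given with their lists, the tuft cell median of 0.11 was -0.058 with a pseudocount of 0.1 FPKM, -0.21 with quality weights, -0.15 without Lgr5-Apc replicate 4 and -0.058 without control replicate 1. The Wnt target median of -0.04 was 0.0030 with no filter. The fetal-like median of 0.14 was -0.34 with the squamous covariate, -0.035 without Lgr5-Apc replicate 2 and -0.11 without control replicate 2. With the squamous covariate the goblet median was 0.35 and the enteroendocrine 0.71, and without Lgr5-Apc replicate 2 the enteroendocrine was 0.32. With the smooth muscle covariate the columnar median was 0.096, posterior gut 0.15, fibroblast 0.31, endothelial 0.15, macrophage 0.061 and epithelial-mesenchymal 0.15. Without Lgr5-Apc replicate 4 the fibroblast median was 0.025, the epithelial-mesenchymal 0.016 and the ribosomal protein 0.11.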

Other observations

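A list of 16 genes of hepatic secretion, chosen after the values were seen and so without a test, had lower means in Lgr5-Apc. All 16 had a negative difference, with a median log2 difference of -2.08, and 6 did not overlap. Their summed FPKM was 176, 83.8, 74.8 and 11.2 in Lgr5-Apc, against 1551, 152 and 346 in control. Control replicate 1 was highest by far, and Lgr5-Apc replicate 1 exceeded control replicate 2. Alb, the albumin gene, was 66.7, 19.5, 10.6 and 4.49 FPKM in Lgr5-Apc, against 902, 34.7 and 163 FPKM in control. The median was -1.05 without control replicate 1.

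The Y-linked genes Ddx3y and Uty were at most 0.0299 and 0.0177 FPKM in Lgr5-Apc, against 1.81 and 1.60 FPKM in control replicate 1 and at most 0.113 and 0.104 FPKM in the other controls. Xist was 97.3, 163, 61.1 and 156 FPKM in Lgr5-Apc, against 154, 98.1 and 107 FPKM in control, so control replicate 1 had both Xist and low levels of Y-linked genes.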
